A study of Mus musculus with 20 samples.

Results

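Levels of 5 mature microRNAs (miRNAs) of the miR-23, miR-24 and miR-27 clusters were followed in mouse serum: mmu-miR-23a-3p, mmu-miR-23b-3p, mmu-miR-24-3p, mmu-miR-27a-3p and mmu-miR-27b-3p, written below without the prefix for mouse. They were chosen by name, as 3p products of these clusters, from the 1915 mature names in the deposited count table. Earlier results of these data were known at that choice. All 5 passed the filter on low counts that left 360 miRNAs for testing. Small RNA was sequenced from serum of female mice in 4 groups of 5 libraries: normal mice at 5 to 6 months (young) and at 21 to 22 months (old), and Ames dwarf mice at the same ages. The labels give 1 strain entry to all 20 samples, Ames dwarf on a heterogeneous genetic background, and name no allele. Ames dwarf mice lack several pituitary hormones, including growth hormone, and live longer than their normal counterparts. The labels do not say whether the libraries of a group came from separate mice, so p-values measure only the spread between these samples. Serum miRNAs come from many tissues and from blood cells, and fewer contributing cells and less RNA released per cell cannot be told apart here.

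The 5 miRNAs are made from 2 short gene clusters that are thought to be copies of each other, each with a miR-23, a miR-27 and a miR-24 hairpin. A miRNA finds its target messages mainly through its seed, a short stretch near its 5′ end, so miRNAs with the same seed, such as the miR-23 pair and the miR-27 pair, are counted as 1 family. The miR-27 family is known for acting on lipid and adipocyte genes, the clusters are abundant in blood vessel and blood cells, and miR-23a-3p is widely used in serum as a reference that red blood cell lysis is thought to leave stable. The ratio of miR-451a, a red blood cell miRNA, to miR-23a-3p is therefore read as an index of haemolysis.

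The mature sequences are shown because they set which reads can be told apart. They come from RefSeq (GRCm38.p6), in which 4 of the 5 names were matched, and capitals mark the seed, bases 2 to 8 counted from the 5′ end:
miR-23a-3p: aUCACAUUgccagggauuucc
miR-24-3p: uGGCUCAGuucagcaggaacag
miR-27a-3p: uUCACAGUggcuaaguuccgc
miR-27b-3p: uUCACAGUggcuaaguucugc

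The miR-27 pair had 1 seed, UCACAGU, and differed at 1 of 21 bases, C19U from miR-27a-3p to miR-27b-3p, counted from 1 at the 5′ end. The seed of miR-24-3p, GGCUCAG, was shared with 4 miRNAs, miR-6413, miR-6410, miR-6369 and miR-5124b, each with 0 reads. In the authors' report on all libraries together, the consensus mature sequence read at the Mir23b hairpin was 18 bases long and equal to the first 18 bases of miR-23a-3p. At Mir23a that consensus was 21 bases long. Mir27a and Mir27b each had a consensus of 20 bases. Reads too short to reach the bases that separate the miR-23 copies, or base 19 of the miR-27 copies, fit both copies. How such reads were divided is not given in the sources used here.

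The Mir23a cluster lies on the plus strand of chromosome 8 (GRCm38), with Mir23a at chr8:84208518-84208592, Mir27a at chr8:84208672-84208758 and Mir24-2 at chr8:84208815-84208921, within 404 bases. Mir24-2 overlaps an exon of the long noncoding RNA gene Gm26532, and Mir23a and Mir27a overlap no other annotated gene. The Mir23b cluster lies on the plus strand of chromosome 13, with Mir23b at chr13:63300484-63300557 in an intron of the protein-coding gene 2010111I01Rik. Mir27b at chr13:63300712-63300784 and Mir24-1 at chr13:63301208-63301275 overlap an annotated exon of at least 1 transcript of that gene. The 3 hairpins span 792 bases and lie opposite an intron of Fancc. Mature miR-24-3p is the same from both clusters, and the table listed the same 6759 reads under both of its hairpins, so its level is the sum of both loci.

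Library totals ran from 1343137 to 4710263 counts with each name counted once, and the 5 miRNAs held 0.55% to 2.42% of them (median 0.871%). Levels below are CPM, counts scaled to 1 common library size, after TMM factors that adjust that size for the few very abundant miRNAs. The largest of those was the red blood cell miRNA miR-486a-5p, listed at 111467 to 493798 CPM. Another name tied with it in mean level, and names with the same counts each entered the library totals. The shares of the 5 miRNAs are therefore shares of listed counts, and lower than shares of separate reads.

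miR-27b-3p was the most abundant of the 5, at 3365 to 12986 CPM over 20 libraries, and made up 46.6% to 82.4% of their summed level. It exceeded miR-27a-3p in 20 of 20 libraries, by 1.23-fold to 7.67-fold (median 2.93). The third was miR-23a-3p, which exceeded miR-23b-3p in 20 of 20 libraries by 4.24-fold to 6.31-fold (median 5.40). The lowest were miR-23b-3p, at 116 to 186 CPM from 170 to 501 reads, and miR-24-3p, at 102 to 276 CPM from 134 to 748 reads, whose ranges overlapped. The name with more reads was thus that of the chromosome 8 copy for miR-23 and of the chromosome 13 copy for miR-27. For each family this order also rests on how reads that fit both copies were divided. These orders are of reads listed under each name, and how readily each RNA is ligated was not measured. The 4 members with a matched sequence are 21 or 22 bases long.

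The steadiest members were the miR-23 pair, whose highest library stood 1.61-fold above the lowest for miR-23a-3p and 1.61-fold for miR-23b-3p. Over the same 20 libraries that fold was 2.46 for miR-27a-3p, 2.71 for miR-24-3p and 3.86 for miR-27b-3p. Within the miR-23 pair and the miR-27 pair, levels also rest on how reads that fit both copies were divided. Levels of miR-23a-3p were 873, 926, 738, 699 and 772 CPM in the young normal libraries and 720, 960, 886, 969 and 881 in the old normal ones. In dwarf mice they were 792, 789, 822, 658 and 749 CPM in young and 780, 812, 677, 603 and 750 in old libraries. All 4 groups overlapped, and the group means, in the order just given, were 801 ± 94.8, 883 ± 99.9, 762 ± 63.5 and 724 ± 84.3 CPM (SD, n = 5). The means of miR-23b-3p ran from 142 ± 15.1 CPM (young dwarf) to 156 ± 13.8 CPM (young normal; SD, n = 5), and neighbouring groups differed by less than 1 SD. The level of miR-24-3p was 140 ± 42.3 CPM in normal mice when young and 120 ± 5.81 when old, and in dwarf mice 155 ± 68.2 when young and 153 ± 35.5 when old (SD, n = 5), with overlap between all groups. A single young dwarf library, replicate 3, reached 276 CPM of miR-24-3p while the next highest of its group had 135.

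**Figure D1:**
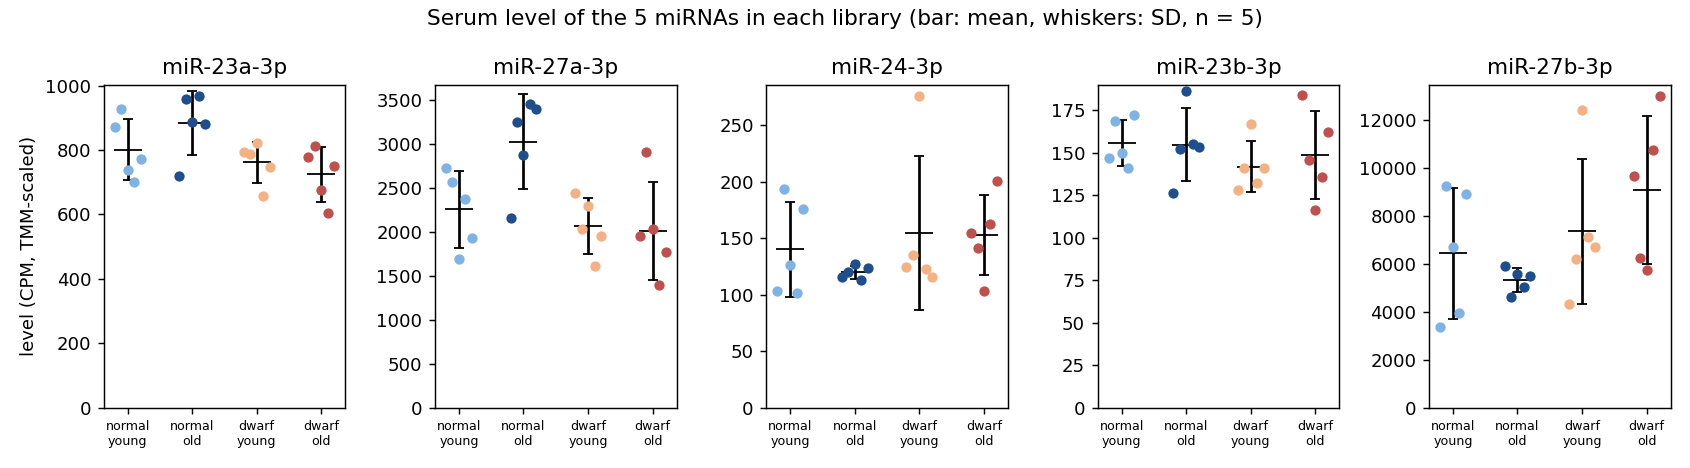
Each panel plots the level of 1 miRNA (CPM, linear axis from 0) in each library, with the mean and SD of each group of 5. The old normal libraries sit high for miR-27a-3p (2156 to 3459 CPM) and close together for miR-27b-3p (4613 to 5933 CPM), and the groups overlap in every panel.

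Old dwarf mice were set against old normal mice to ask whether genotype separates serum miRNAs late in life. Among the 5 miRNAs miR-27a-3p fell, and the other 4 did not pass the test. In old normal libraries miR-27a-3p stood at 2156, 3249, 2878, 3459 and 3405 CPM, and in old dwarf libraries at 1961, 2916, 2035, 1404 and 1772. Old dwarf replicate 2 lay above 2 old normal libraries, and the other 4 old dwarf libraries lay below every old normal one. The log2 fold change was -0.59 ± 0.21 (SE), with an edgeR quasi-likelihood adjusted p of 0.0435 over 360 miRNAs. This call was not stable: the adjusted p was over 0.05 in 14 of 20 fits that each left out 1 library, with log2 fold changes from -0.75 to -0.48 and adjusted p from 0.00979 to 0.175. The adjusted p was lowest without old dwarf replicate 2 and highest without old dwarf replicate 4.

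The seed partner miR-27b-3p had the opposite sign. It stood at 5933, 4613, 5570, 5037 and 5477 CPM in old normal libraries and at 9671, 6262, 5730, 10771 and 12986 in old dwarf libraries. Of the old dwarf libraries 4 of 5 lay above every old normal one, and their spread was the wider (SD 3067 against 511 CPM). The log2 fold change of 0.77 ± 0.31 (SE) missed the threshold, with an edgeR adjusted p of 0.0671 and a 95% interval from 0.13 to 1.41. It passed in 4 of 20 fits that each left out 1 library, such as old dwarf replicate 2 (edgeR adjusted p 0.0358) or replicate 3 (0.0334), and with DESeq2's Wald test (adjusted p 0.0252).

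For the other members the log2 difference between old dwarf and old normal mice was -0.29 ± 0.15 (SE) for miR-23a-3p, with an edgeR adjusted p of 0.137 and a 95% interval from -0.59 to 0.02. It was 0.35 ± 0.26 for miR-24-3p (edgeR adjusted p 0.306) and -0.06 ± 0.17 for miR-23b-3p (0.797). The interval of miR-23b-3p, from -0.41 to 0.30, leaves room for changes in either direction. Read against the background, 1 of 5 members was called, and lower, where 25.8% of 360 miRNAs were called in either direction and 10.3% were called lower. The median log2 fold change was -0.06 over the members and -0.06 over all miRNAs tested.

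Marker miRNAs of other cell types were set beside this comparison, in which 25.8% of all miRNAs were called. The lists were chosen with earlier results of these data known, so their calls are a description. In the lymphocyte list 2 of 2 fell, among them miR-150-5p (log2 fold change -1.63 ± 0.38, edgeR adjusted p 0.00635). Their summed level ran from 1570 to 4945 CPM in old normal, 657 to 1437 in old dwarf, 605 to 1879 in young normal and 640 to 1416 in young dwarf libraries. In the platelet and myeloid list 1 of 4 fell, miR-191-5p (-1.10 ± 0.37, edgeR adjusted p 0.0346), and the summed level ran from 53352 to 74905 CPM in old normal, 19943 to 57438 in old dwarf, 20017 to 50447 in young normal and 18175 to 45327 in young dwarf libraries. In the vascular list 1 of 6 rose, miR-143-3p (1.34 ± 0.46, edgeR adjusted p 0.0395), and 1 fell, miR-222-3p (-1.31 ± 0.47, 0.0462). Its summed level ran from 4841 to 7820 CPM in old normal and from 5441 to 9288 in old dwarf libraries.

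In the erythroid list 0 of 5 were called between the old groups, with miR-451a at 0.73 ± 0.28 (edgeR adjusted p 0.0563). The erythroid sum was 390224 to 581627 CPM in old normal, 304746 to 569602 in old dwarf, 230678 to 526693 in young normal and 207760 to 392328 in young dwarf libraries. Most of that sum was miR-486a-5p (log2 difference -0.32, edgeR adjusted p 0.418), while 4 of the 5 erythroid miRNAs stood higher in old dwarf mice than in normal mice of that age (median log2 difference 0.57 over the list and -0.06 over all miRNAs). The liver and muscle lists had 0 of 2 and 0 of 2 called, with every miRNA of these lists higher in old dwarf mice (median log2 difference 1.64 and 1.79). For liver these were 2.74 ± 1.25 (SE) for miR-122-5p and 0.53 ± 0.40 for miR-192-5p. For muscle they were 2.35 ± 1.11 for miR-1a-3p and 1.24 ± 0.64 for miR-133a-3p. Levels of miR-122-5p ran from 3.94 to 347 CPM in old dwarf libraries (median 12.9). In old normal libraries they ran from 4.80 to 36.9 CPM (median 10.3). No listed miRNA was without reads in a whole group, though the muscle miRNA miR-1a-3p had only 4 reads over the old normal libraries. With the miR-451a level as a covariate the log2 difference of miR-27a-3p was -0.33 (edgeR adjusted p 0.458) and that of miR-27b-3p was 0.32 (0.715), in a fit that called 0 of the 360 miRNAs. The part of the other blood cell miRNAs in these differences was not tested.

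Between young dwarf and young normal mice none of the 5 miRNAs passed and none had an unadjusted p under 0.05. Across all 360 miRNAs edgeR called 0 (0%) there, with 28 at an unadjusted p under 0.05, while DESeq2's Wald test called 3 higher and 3 lower. The log2 fold changes of the members ran from -0.13 ± 0.17 (SE) for miR-23b-3p to 0.19 ± 0.31 for miR-27b-3p. The 95% interval of miR-27a-3p was from -0.55 to 0.30, and that of miR-27b-3p from -0.45 to 0.83. Levels of miR-27a-3p were 2734, 2572, 1689, 2376 and 1934 CPM in young normal and 2443, 2040, 2294, 1617 and 1959 in young dwarf libraries, which overlapped across nearly the whole range. For miR-27b-3p they were 3365, 9256, 6706, 3974 and 8937 in young normal and 4317, 6203, 12429, 7125 and 6702 in young dwarf libraries. The 12429 CPM came from replicate 3, the library that also held the highest miR-24-3p, and without it the log2 difference was -0.09 for miR-27b-3p and -0.19 for miR-24-3p, against 0.19 and 0.15 with it.

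With age in normal mice, miR-27a-3p had a mean of 2261 ± 438 CPM in young and 3029 ± 539 in old libraries (SD, n = 5). The log2 difference of 0.42 ± 0.21 (SE) did not pass (edgeR adjusted p 0.134), and on library totals without TMM factors its sign flipped to -0.04 while the median of all miRNAs moved to -0.42. The other 4 members lay between -0.28 ± 0.31 (SE) for miR-27b-3p and 0.14 ± 0.15 for miR-23a-3p. None of the 5 was called, where 15.3% of 360 miRNAs were. With age in dwarf mice none of the 5 was called either, where 0.556% were (2 miRNAs). There the log2 differences ran from -0.07 ± 0.15 for miR-23a-3p to 0.30 ± 0.31 for miR-27b-3p, and that of miR-27a-3p was -0.04 ± 0.20.

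The study's central question is whether ageing acts differently in the 2 genotypes, which the difference of the age effects (dwarf minus normal) tests. It was -0.46 ± 0.29 (SE, log2) for miR-27a-3p, with an edgeR adjusted p of 0.442 and a 95% interval from -1.06 to 0.15. For miR-27b-3p it was 0.58 ± 0.43 (edgeR adjusted p 0.521, interval from -0.33 to 1.49). No member was called, nor was any of the 360 miRNAs (0%) by edgeR, although 55 had an unadjusted p under 0.05 and DESeq2's Wald test called 17 higher and 3 lower. The medians were 0.08 over the members and 0.01 over all miRNAs. These comparisons share groups: the old normal libraries enter the genotype comparison in old mice, the age comparison in normal mice and the difference of age effects.

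**Figure D2:**
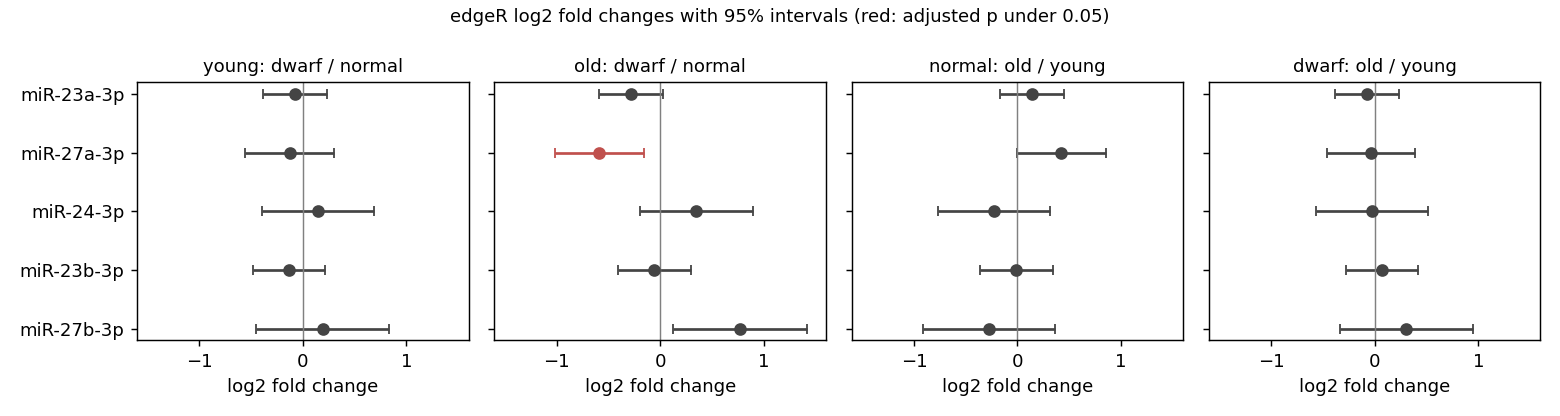
Each panel plots the edgeR log2 fold change of the 5 miRNAs with its 95% interval for 1 comparison, and red marks an adjusted p under 0.05. Only miR-27a-3p between old dwarf and old normal mice is red (-0.59), and miR-27b-3p lies on the other side of 0 there (0.77).

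The miR-27 copies differ at 1 base and were counted against each other within a library, which needs no scaling between libraries. Reads that end before that base, base 19, fit both copies, and how these were divided is not known here. The log2 ratio of miR-27a-3p to miR-27b-3p (each count plus 1) was -1.46, -0.51, -0.95, -0.54 and -0.69 in old normal and -2.30, -1.10, -1.49, -2.94 and -2.87 in old dwarf libraries. The groups overlapped through old normal replicate 1 and old dwarf replicate 2. The mean was -0.83 ± 0.39 in old normal and -2.14 ± 0.82 in old dwarf libraries (SD, n = 5), a difference of -1.31. A 2-sided exact permutation test gave p = 0.0159, and 0.127 after adjustment over the 8 ratio tests, so the difference did not pass. A lone difference among the 8 could not pass, since the smallest exact permutation p of 0.00794 adjusts to 0.0635. On the linear scale there were 0.13 to 0.466 reads of miR-27a-3p for each read of miR-27b-3p in old dwarf and 0.363 to 0.704 in old normal libraries.

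The SD of that ratio was larger in the other 3 groups than in old normal mice. It was -0.30, -1.85, -1.99, -0.74 and -2.21 in young normal libraries, with a mean of -1.42 ± 0.84 (SD, n = 5), and had a mean of -1.76 ± 0.61 in young dwarf libraries. Young normal replicates 1 and 4 stood above the other 3, and both also had the lowest miR-27b-3p of their group. The age difference in normal mice was 0.59 (exact permutation p = 0.19, adjusted 0.381), and the old against young difference in dwarf mice was -0.39 (exact permutation p = 0.413, adjusted 0.484).

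The miR-23 copies kept a narrower ratio. Reads too short to separate these copies fit both. How such reads were divided is not known here, so this ratio also rests on that division. The log2 ratio of miR-23a-3p to miR-23b-3p had a mean of 2.36 ± 0.16 in normal mice when young and 2.51 ± 0.16 when old, and in dwarf mice of 2.42 ± 0.14 when young and 2.29 ± 0.21 when old (SD, n = 5). The old groups differed by -0.22 (exact permutation p = 0.0714, adjusted 0.286), and all 4 comparisons overlapped. None of the 8 ratio tests passed after adjustment, and 1 had an unadjusted p under 0.05.

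The chromosome 8 members miR-23a-3p and miR-27a-3p ran high and low in the same libraries. Correlations are of log2 (CPM plus 1) over 20 libraries for the 10 pairs of members, given as a description. The points share 1 scaling and the group differences, so the value after centring each group is given too, followed for some pairs by the value over the 18 libraries left without the 2 farthest from the median of the miRNA named first. Pearson's r of miR-23a-3p with miR-27a-3p, neighbours on chromosome 8, was 0.857 (Spearman's rho 0.833, within groups 0.791, without the 2 libraries 0.782). That of miR-23b-3p with miR-27b-3p, neighbours on chromosome 13, was 0.380 (rho 0.305, within groups 0.577). Between the clusters, miR-27a-3p and miR-27b-3p had an r of -0.561 (rho -0.653, within groups -0.428, without the 2 libraries -0.478). The remaining r values between clusters were 0.537 for miR-23a-3p with miR-23b-3p (rho 0.598, within groups 0.551), -0.286 for miR-23a-3p with miR-27b-3p (rho -0.310, within groups -0.0044) and 0.234 for miR-23b-3p with miR-27a-3p (rho 0.236, within groups 0.158). The r between copies of a family also rests on how reads that fit both were divided.

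Mature miR-24-3p, which either cluster can supply, followed the chromosome 13 member miR-27b-3p with an r of 0.863 (rho 0.803, within groups 0.872, without the 2 libraries 0.817). Its r with miR-27a-3p was -0.249 (rho -0.284, within groups -0.038). With miR-23b-3p it was 0.529 (rho 0.538, within groups 0.674), and with miR-23a-3p 0.042 (rho 0.12, within groups 0.317).

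**Figure D3:**
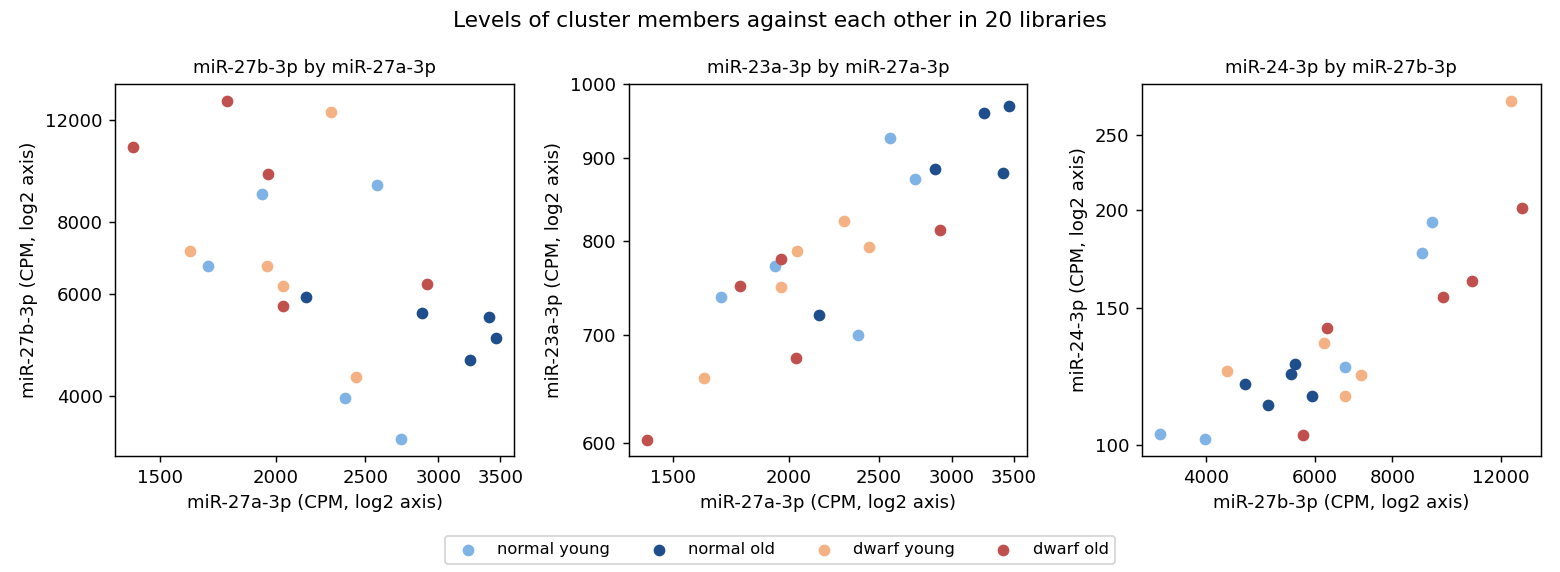
Each point is 1 of 20 libraries and both axes are CPM on a log2 scale. miR-23a-3p rises with miR-27a-3p (r = 0.857) and miR-24-3p with miR-27b-3p (r = 0.863), while miR-27b-3p is lower where miR-27a-3p is higher (r = -0.561).

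The partner (5p) arms are the other arms of the same hairpins, and each names its own cluster, though not the source of miR-24-3p. The 5p arms of the miR-24 hairpins are shown with the bases that separate them in capitals, after 16 shared bases (RefSeq, GRCm38.p6):
miR-24-1-5p: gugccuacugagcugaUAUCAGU
miR-24-2-5p: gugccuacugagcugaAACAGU

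The arm from chromosome 8, miR-24-2-5p, had 5987 reads over all libraries, close to the 6759 of miR-24-3p. It exceeded miR-24-3p in 8 of 20 libraries, and the ratio of the arms ran from 0.426 to 1.54 (median 0.957). The arm from chromosome 13, miR-24-1-5p, had 32 reads in all, at most 7 in a library and none in 6 of 20 libraries. Of the others, miR-27a-5p had 1563 reads, miR-27b-5p 91, miR-23a-5p 25 and miR-23b-5p 1. Only miR-24-2-5p and miR-27a-5p, 2 of 6, passed the filter on low counts. Reads of a 5p arm do not give how much 3p RNA its hairpin supplied. The 91 reads of miR-27b-5p, for example, stood beside 331963 of miR-27b-3p. The share of miR-24-3p from each cluster was not tested.

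Across libraries miR-24-2-5p followed the chromosome 8 members: its r was 0.769 with miR-27a-3p (rho 0.767, within groups 0.791, without the 2 libraries 0.808) and 0.678 with miR-23a-3p (rho 0.771, within groups 0.747). Its r with miR-24-3p, the other arm of its hairpin, was -0.00 (rho 0.104, within groups 0.181). Levels of miR-24-2-5p were 114 ± 20.5 CPM in normal mice when young and 153 ± 28.6 when old, and in dwarf mice 114 ± 9.88 when young and 132 ± 29.6 when old (SD, n = 5). In normal mice its log2 difference with age was 0.42 ± 0.20 (SE) and did not pass (edgeR adjusted p 0.121). For miR-27a-5p that difference was 1.17 ± 0.58 (edgeR adjusted p 0.136), from a mean of 23.6 ± 23.5 CPM in young and 52.9 ± 14.4 in old normal libraries (SD, n = 5). Neither arm was called in any comparison, and between old dwarf and old normal mice their log2 differences were -0.21 ± 0.20 and -0.45 ± 0.57 (SE; edgeR adjusted p 0.419 and 0.564).

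The tested miRNAs whose levels ran most like each member over the 20 libraries, other than members and partner arms, were picked by Pearson's r of log2 (CPM plus 1). For miR-27a-3p they were miR-669a-5p and miR-669p-5p, which were listed at the same levels (r = 0.898), and miR-223-5p (0.884). For miR-23a-3p they were miR-669a-3p and miR-669o-3p, again at the same levels (0.757), and miR-223-5p (0.719). Both chromosome 8 members thus had miR-223-5p, a product of a hairpin known from myeloid cells, among the 3 closest. Its mean level was 18.4 CPM, and within groups its r was 0.804 with miR-27a-3p and 0.559 with miR-23a-3p. A shared cell source was not tested. For miR-27b-3p they were miR-5128 (0.888), miR-574-5p (0.880) and miR-485-3p (0.879), and for miR-24-3p miR-344-3p (0.792), miR-485-3p (0.780) and miR-101a-3p (0.773). For miR-23b-3p they were miR-511-3p (0.788), miR-29a-3p (0.610) and miR-99a-5p (0.574). Several of these had mean levels under 10 CPM, namely miR-511-3p (3.80 CPM), miR-344-3p (3.30), miR-485-3p (3.90), miR-574-5p (9.15) and miR-669a-3p (3.87).

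Since miR-23a-3p serves as the reference of the haemolysis index, the ratio of miR-451a was formed with each of the 5 miRNAs in turn. miR-451a itself was lower in old than in young normal mice (log2 fold change -0.99 ± 0.28 SE, edgeR adjusted p 0.0201), at 18403 ± 5948 and 36592 ± 13083 CPM (SD, n = 5). In dwarf mice it stood at 30604 ± 6765 CPM when old and 32891 ± 8661 when young. Of the 5 erythroid miRNAs 4 had a lower level in old than in young normal mice. Besides miR-451a these were miR-144-3p (log2 difference -0.69, edgeR adjusted p 0.0709), miR-144-5p (-0.75, 0.0615) and miR-16-5p (-0.35, 0.204), which did not pass. The fifth, miR-486a-5p, had a mean of 391893 ± 62975 CPM in old normal and 260737 ± 106540 in young normal libraries (SD, n = 5).

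With miR-23a-3p as reference the log2 ratio was 4.30 ± 0.70 in old normal and 5.38 ± 0.44 in old dwarf libraries (SD, n = 5), which did not overlap (3.13 to 4.83 and 4.90 to 6.09). The difference of 1.08 had an exact permutation p of 0.00794, the smallest that 5 against 5 libraries can give, and an adjusted p of 0.0635 over the 20 ratio tests. With miR-23b-3p the groups did not overlap either and the difference was 0.85 (exact permutation p = 0.00794, adjusted 0.0635). The reference miR-27a-3p gave 1.40 (exact permutation p = 0.0159, adjusted 0.0635), with overlap. With miR-24-3p the same miR-451a counts gave 0.48 (exact permutation p = 0.143, adjusted 0.286), and with miR-27b-3p they gave 0.09 (exact permutation p = 0.722, adjusted 0.963). The genotype difference in old mice thus ran from 0.09 to 1.40 on the log2 scale by choice of reference within these 2 clusters.

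The age difference of that ratio in normal mice was negative with every reference. It was -1.43 with miR-27a-3p (exact permutation p = 0.0159, adjusted 0.0635), -1.15 with miR-23a-3p (0.0238, adjusted 0.0794, exact), -0.99 with miR-23b-3p (0.0159, adjusted 0.0635, exact), -0.83 with miR-24-3p (0.0397, adjusted 0.113, exact) and -0.84 with miR-27b-3p (0.0794, adjusted 0.198, exact). None of the 20 ratio tests passed after adjustment, and 7 had an unadjusted p under 0.05. A lone test among the 20 could not pass, even at the smallest exact permutation p of 0.00794. Old normal replicate 2, with 8405 CPM of miR-451a, had the lowest ratio of its group with each reference. Without it the difference between old dwarf and old normal libraries was 0.78 with miR-23a-3p, 1.11 with miR-27a-3p, 0.59 with miR-23b-3p, 0.21 with miR-24-3p and -0.12 with miR-27b-3p. Between the young groups, and with age in dwarf mice, the ratios with miR-23a-3p differed by -0.05 and -0.02.

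**Figure D4:**
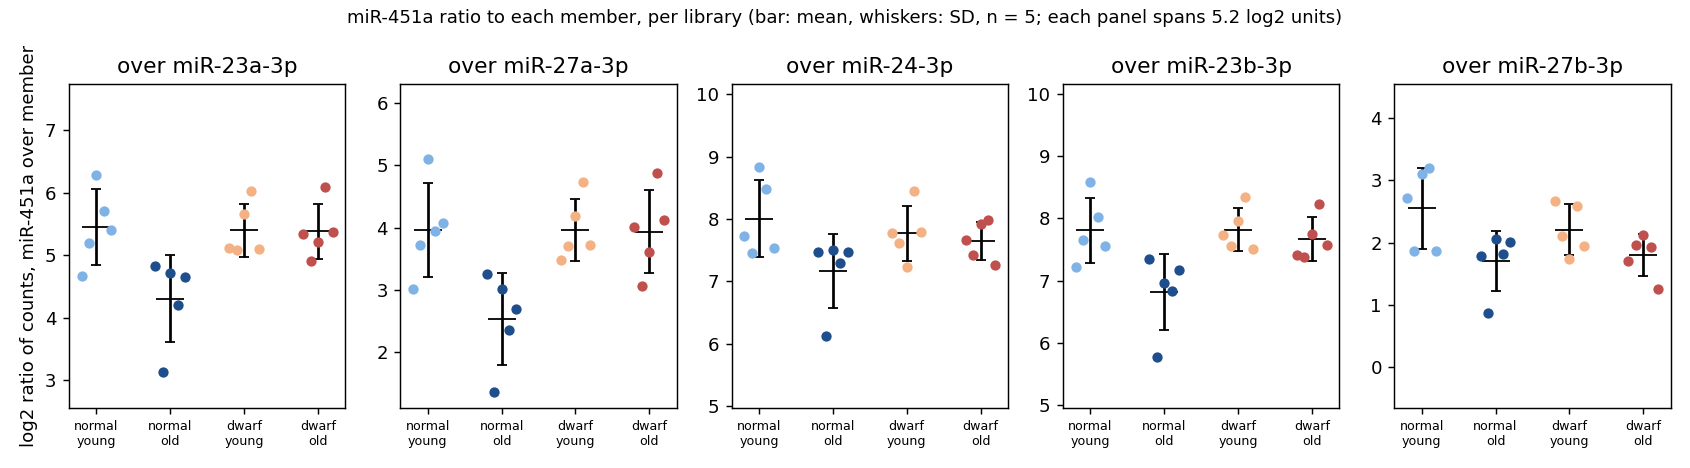
Each panel plots the log2 ratio of miR-451a to 1 member in each library, with the mean and SD of each group of 5, on axes of equal length. Old normal and old dwarf libraries do not overlap over miR-23a-3p (4.30 against 5.38) and overlap over miR-27b-3p (1.71 against 1.80).

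The negative r of miR-451a with the chromosome 8 members was -0.699 for miR-27a-3p (rho -0.710, within groups -0.540, without the 2 libraries -0.658) and -0.595 for miR-23a-3p (rho -0.535, within groups -0.489) over 20 libraries. With miR-27b-3p its r was 0.499 (rho 0.618, within groups 0.503), with miR-24-3p 0.386 (rho 0.471, within groups 0.287) and with miR-23b-3p 0.033 (rho 0.026, within groups 0.149). The level of the usual reference was thus lower in libraries with more miR-451a, while the r with miR-23b-3p was near 0. Both levels of a pair share the library scaling, and its part in these r values was not tested. The contrast between the miR-23 copies also rests on how reads that fit both were divided.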

How the data were processed

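Reads of serum small RNA (column-based RNA extraction and a TruSeq small RNA library kit, per the labels) were counted per mature miRNA and precursor by the authors. Per the file headers, the deposited count table is laid out like output of the miRDeep2 quantifier, and Bowtie 0.12.8, bedtools, edgeR and GRCm38 (mm10) are named without a role in the submitters' processing notes. The deposited RPM columns were set beside the counts as a check and entered no test. No sample column was left unused (0). For each of 1915 names in 2241 rows, the row with the highest total was kept.

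Counts were tested with edgeR 4.0.16 (limma 3.58.1, R 4.3.3): TMM factors, default filter by group (minimum count 10), robust quasi-likelihood fit over all 20 libraries, and Benjamini-Hochberg adjustment over 360 miRNAs, called at an adjusted p under 0.05. The common biological coefficient of variation was 47.5%. Ratios of counts (each plus 1) were compared with 2-sided exact permutation tests over 252 splits, adjusted within each family. Alternatives were other scalings, DESeq2 1.42.0, no filter, summed precursor rows, identical names once, covariates, the replicate block and leaving out each library.

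The named miRNAs are the members, their 5p arms, seed sharers, marker lists and the 3 most correlated miRNAs for each member. Members and lists were chosen with earlier results of these data known. Libraries with the same replicate number did not deviate together in every pair: their correlations ran from -0.68 to 0.81, with 4 of 5 pairs over 0.1 between the young groups, 2 between the old groups, 1 with age in normal mice and 2 with age in dwarf mice, so the numbers were not used as pairs. Hairpin positions are those of RefSeq and GENCODE M21 on GRCm38. Fragments of tRNA were not analysed here. Tests rest on read counting, and amplified reads are not independent molecules.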

Additional observations from a re-analysis of the deposited data

Results flagged for a closer look

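Among 56 sets of 5 values examined, 4 held a library far from the other 4 of its group, where chance gives about 1 in 20 sets. In young dwarf mice, replicate 3 had 276 CPM of miR-24-3p and the next highest library had 135. In the same group, replicate 1 had 65.4 CPM of miR-27a-5p and the next highest had 19.2. Young normal replicate 1 was also high, at 63.6 CPM of miR-27a-5p against 25.9 in the next highest of its group, but was not flagged. In old normal mice, replicate 2 had a log2 ratio of miR-451a to miR-24-3p of 6.12, below the next lowest of 7.29. The same library had a log2 ratio of miR-451a to miR-27b-3p of 0.87, below the next lowest of 1.79. No cause of these values was tested.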

How the results depend on the processing

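The number of the 5 miRNAs called between old dwarf and old normal mice was 1, and it was 0 on library totals without TMM factors, with no filter beyond 1 read and with the miR-451a covariate, and 2 with DESeq2's Wald test and with identical names counted once. Over fits that each left out 1 library it ran from 0 to 2. The call of miR-27a-3p was lost without young normal replicates 2 or 4, old normal replicates 2, 3, 4 or 5, young dwarf replicates 2, 3, 4 or 5, or old dwarf replicates 1, 3, 4 or 5, and held in 6 of 11 other settings. That of miR-27b-3p was made in 4 of 11. Where 1 member was called, it was thus in some settings miR-27b-3p in place of miR-27a-3p. Neither changed sign between the old groups, and no member was called in another comparison under any setting. Over all miRNAs 93 were called there, and 120, 65, 0, 136 and 102 under those 5 settings in the order named. The cause of these changes was not tested. The ratio tests passed under no setting, which says nothing about stability: the smallest exact p of 0.00794 adjusts to 0.0635 for a lone test among 8, and among 20 at least 4 tests would have to reach it.

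The signs that changed all belonged to differences that were not called. On library totals, which moved the median of all miRNAs to 0.18, 0.23, -0.42 and -0.38 in the comparisons below, the log2 values were as follows. Young dwarf against young normal gave 0.13 for miR-23a-3p, 0.073 for miR-23b-3p and 0.083 for miR-27a-3p. Old dwarf against old normal gave 0.28 for miR-23b-3p. Old against young normal gave -0.35 for miR-23a-3p and -0.044 for miR-27a-3p, and old against young dwarf gave -0.31 for miR-23b-3p and -0.086 for miR-27b-3p. Old dwarf against old normal gave miR-23b-3p 0.081 with DESeq2 size factors, 0.079 with DESeq2's Wald test, 0.012 with identical names once and 0.050 with only the groups compared. Old against young dwarf gave miR-24-3p 0.0091 with DESeq2 size factors, 0.0082 with the Wald test, 0.097 with upper-quartile factors, 0.043 with identical names once, 0.011 with the miR-451a covariate and 0.029 with only the groups compared. There miR-27a-3p was 0.060 with upper-quartile factors, 0.0057 with identical names once and 0.0030 with only the groups compared, miR-23a-3p was 0.029 with upper-quartile factors, and miR-23b-3p was -0.0087 with no filter. In normal mice with age, miR-23b-3p was 0.15 with upper-quartile factors, and miR-23a-3p was -0.12 with only the groups compared. With the miR-451a covariate that comparison gave -0.028 for miR-23a-3p, 0.058 for miR-23b-3p, 0.038 for miR-24-3p and 0.28 for miR-27b-3p, and the difference of age effects was -0.027 for miR-24-3p.

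Leaving out 1 library at a time, old against young dwarf ran from -0.12 to 0.00010 for miR-23a-3p, -0.031 to 0.15 for miR-23b-3p, -0.12 to 0.28 for miR-24-3p and -0.21 to 0.095 for miR-27a-3p. For miR-23b-3p the ranges were -0.14 to 0.031 between the old groups, -0.091 to 0.050 with age in normal mice and -0.013 to 0.16 for the difference of age effects. Between the young groups they were -0.19 to 0.29 for miR-24-3p and -0.093 to 0.36 for miR-27b-3p. The log2 ratio of miR-451a ran from -0.19 to 0.14 (miR-23a-3p), -0.26 to 0.045 (miR-24-3p) and -0.26 to 0.19 (miR-27a-3p) in dwarf mice with age. Between the young groups it ran from -0.25 to 0.16 (miR-23a-3p), -0.13 to 0.21 (miR-23b-3p) and -0.24 to 0.28 (miR-27a-3p), and between the old groups from -0.12 to 0.22 (miR-27b-3p).

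With the replicate block, miR-27a-3p between old dwarf and old normal mice was -0.62 (edgeR adjusted p 0.0481) and the number of members called stayed at 1. With that block the sign of miR-24-3p changed in dwarf mice with age (0.012). In pairs, 5 against 5 libraries cannot give a sign-flip p under 0.0625. Depth limits miR-24-3p and miR-23b-3p most, at 134 reads or more and 170 reads or more per library, and 4 partner arms could not be tested.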
